A study of Mus musculus with 9 samples.

Results

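The nuclear lamina and envelope genes described here are 10: the lamins Lmna, Lmnb1 and Lmnb2, the lamin B receptor gene Lbr, the LEM-domain genes Emd, Tmpo and Lemd3, their chromatin partner Banf1, and the SUN-domain genes Sun1 and Sun2. They were chosen by name, as the probe sets whose platform annotation gives exactly 1 of these symbols, which takes 27 probe sets of the 34945 that name 1 gene and 10 genes of the 18193 tested. Of the 27 probe sets, 18 had a mean intensity over 100 across the arrays, and every gene had at least 1 of these. The other 9 were 4 of Lmna, 3 of Tmpo and 1 each of Lmnb2 and Lemd3.

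The arrays compared 3 marrow populations of normal mice of the inbred strain C57BL/6, of either sex and 4 to 10 weeks old, with 3 arrays per population. Mac1lo cells (MAC1- in the titles, Mac1 low or absent in the descriptions) were c-kit+ Gr1+ cells without lineage antigens of B, T and erythroid cells, and Mac1+ cells were the same gate with Mac1. Both had the look of undifferentiated cells or myeloblasts. Neutrophils were c-kit- Gr1+ Mac1+ and mature. No population carried a transgene or treatment by the labels, which leave it unsaid whether each array is a different mouse. The p-values thus reflect the spread among these arrays alone, and that spread may be technical. Transcript levels of the sort genes followed the gates: Itgam, which encodes the Mac1 alpha chain, was 3.23 ± 0.23 log2 units higher in Mac1+ than in Mac1lo cells (adjusted p = 3.37e-05), and Kit was lower in neutrophils than in Mac1+ cells (difference -3.87 ± 0.37, adjusted p = 2.47e-05).

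The lamina is a meshwork of A-type lamins (from Lmna) and B-type lamins (from Lmnb1 and Lmnb2) that lines the inner nuclear membrane and sets the stiffness of the nucleus. The lamin B receptor and the LEM-domain proteins sit in or near that membrane and hold chromatin against it, and the SUN proteins reach across the lumen of the envelope to nesprins, which bind the cytoskeleton. In neutrophils the envelope is known for its lobes, and a loss of the lamin B receptor leaves the nucleus round or bilobed, as in the Pelger-Huët anomaly of humans and the ichthyosis mouse.

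Levels are given as deposited intensities, an array's summary brightness per probe set on a linear scale, and as log2(intensity + 16), on which the differences (± standard error) were tested; dim genes are understated there. A gene is represented by its probe set with the highest mean, and called at a Benjamini-Hochberg adjusted p under 0.05 over all genes in limma. The level of a probe set was not read against that of another; ratios between genes are used only for their change between populations. In bulk RNA, fewer cells of a type and less RNA per cell cannot be told apart.

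The arrays of the c-kit+ populations were alike (mean correlation with their own group 0.989 to 0.9935 over genes), and neutrophil arrays less so (0.933, 0.963 and 0.956 for arrays 1, 2 and 3). Neutrophil array 1 had a median intensity of 61.8 against 39.1 to 45.4 on the other 8 arrays. Where results of the 10 genes by their brightest probe sets rest on it, they are given without it as well. Monocyte and macrophage markers, of which 9 of 10 were measured, summed to intensities of 50570 to 54180 in Mac1lo cells, 5590 to 6756 in Mac1+ cells and 16190 to 23020 in neutrophils, with 9, 8 and 8 of them over 100. Cd68 and Adgre1 went the other way, at 1489.3 to 2279.3 and 1940.2 to 2455.6 in neutrophils against 653.4 to 870.3 and 1221.1 to 1357.6 in Mac1lo cells. Csf1r overlapped between Mac1lo cells and neutrophils, and the remaining markers of this list were highest in Mac1lo cells. Granulocyte markers (11 of 11) summed to between 17350 and 21290 in Mac1lo cells and to at least 102600 on every other array. Of these, Mmp8 did not rise in Mac1+ cells, at 128.1 to 137.9 against 101.9 to 182.2 in Mac1lo cells. It read 12308.2 to 14114.7 in neutrophils. Cxcr2, Mmp9, Itgam and Csf3r were also higher in neutrophils than in Mac1+ cells without overlap. S100a9 was higher in Mac1+ cells, and the remaining markers of this list overlapped between Mac1+ cells and neutrophils. T cell markers (6 of 7 measured) summed to at most 386 on c-kit+ arrays and to 533.2 to 744.5 in neutrophils, most of it Cd3d (402.5, 484.3 and 356.8, against at most 51.0 on c-kit+ arrays), while Cd3e was at most 10.3 in neutrophils and Cd3g at most 11.1. Erythroid markers (6 of 9) summed to at most 271.2 on c-kit+ arrays and to 562.3, 305.2 and 213.6 on neutrophil arrays 1, 2 and 3. The largest part in neutrophils was Epor (274.9, 125.0 and 102.4, against at most 31.2 on c-kit+ arrays). Car1 went the other way, at 60.5 to 90.4 in neutrophils against 107.2 to 166.6 in Mac1lo cells, and Hba-a1 was at most 27.0 in neutrophils. B cell markers (7 of 8) summed to between 3453 and 13380 on c-kit+ arrays, most of it Ebf1, with Cd79b at 550.9 to 1176 and Igll1 at 614.8 to 775.2, and to 1077 to 2691 in neutrophils. Pax5 was at most 48.1 on all arrays. The part of these other cells in the results below was not tested.

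Between Mac1lo and Mac1+ cells none of the 10 genes passed the test by its brightest probe set, although a second probe set of Sun2 did, whereas neutrophils had far less Banf1 and Lmnb2 than either c-kit+ population and moderately less Sun1, Emd and Tmpo. The fall of Sun1 from Mac1+ cells was called in only 9 of 19 alternative settings of the analysis. Lmna was a little higher in neutrophils. Of the 10 genes, 0 were called in Mac1+ against Mac1lo by limma, where 11.8% of all genes were (6.31% higher and 5.51% lower), and 3 (Sun2, Lmnb2 and Lbr) had an unadjusted p under 0.05. For 5 of the 10 the arrays of these populations did not overlap, as for 39.9% of all genes. In neutrophils against Mac1+ cells 5 were lower and 1 higher, against 28.4% and 19.7% of all genes (48.1% in either direction), and 4 did not pass; 6 did not overlap, as 54.6% of all genes. Neutrophils against Mac1lo cells gave the same counts of 5 lower and 1 higher, against 30.0% and 22.6% (52.6% in either direction), and 7 did not overlap, as 59.1% of all genes. These comparisons share the neutrophil arrays. The members' median difference was 0.12, -0.51 and -0.36 in the 3 comparisons, and that of all genes -0.01, 0.05 and 0.05.

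**Figure D1:**
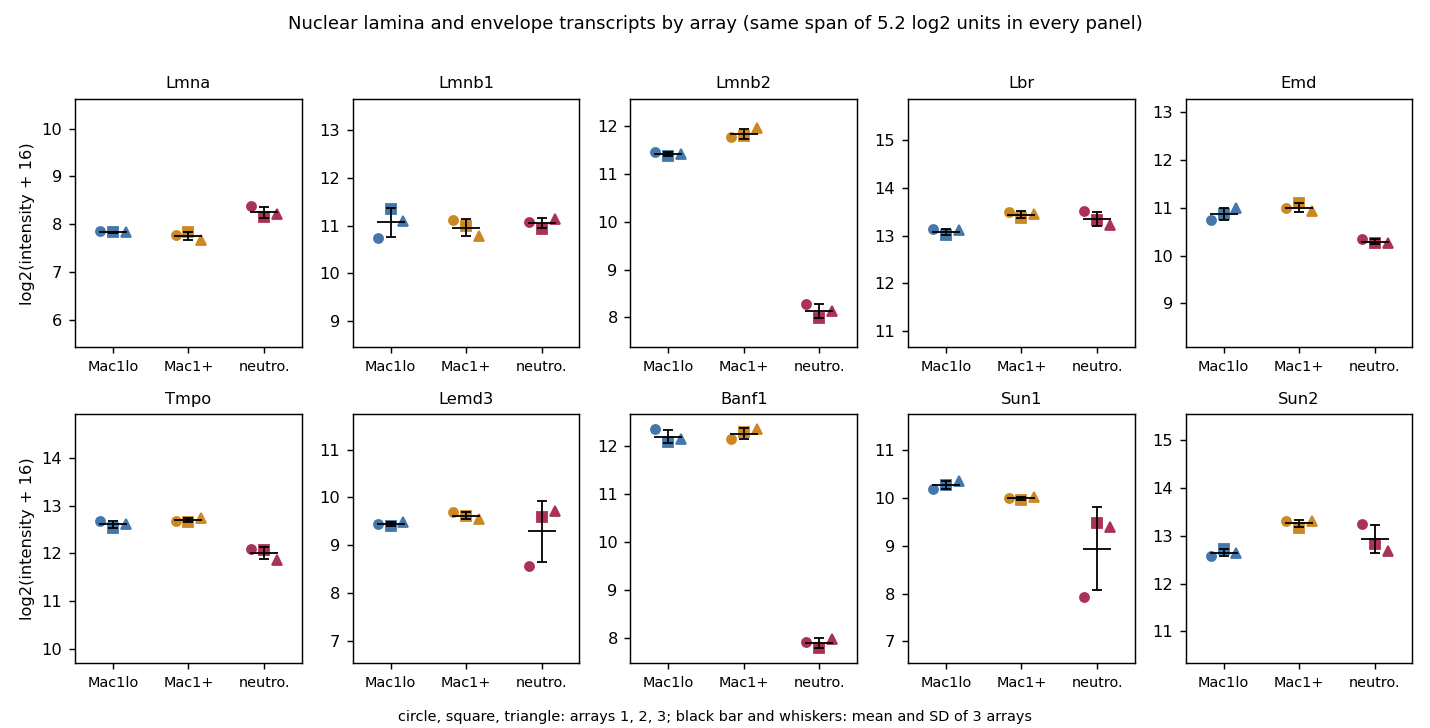
Levels of the 10 transcripts on each of 9 arrays as log2(intensity + 16), a panel per gene, with every panel spanning the same range; points are arrays and bars mean and SD of 3 arrays per population. Banf1 and Lmnb2 drop in neutrophils, Lbr and Lmnb1 stay near their c-kit+ levels, and neutrophil array 1 lies below arrays 2 and 3 for Sun1 and Lemd3.

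Lmna, the A-type lamin gene, stood at intensities of 214.2, 211.8 and 211.2 in Mac1lo cells, 201.6, 211.5 and 186.1 in Mac1+ cells, and 317.3, 267.7 and 279.1 in neutrophils. The neutrophil arrays all lay above the c-kit+ arrays, and the latter overlapped. Lmna was 1.41-fold higher in neutrophils than in Mac1+ cells (8.24 ± 0.12 against 7.75 ± 0.09 log2, SD, n = 3 each, difference 0.49 ± 0.13, adjusted p = 0.0124) and 1.33-fold higher than in Mac1lo cells (difference 0.41 ± 0.13, adjusted p = 0.0267). Mac1+ and Mac1lo cells did not differ beyond their spread (difference -0.08, 95% interval -0.38 to 0.21). The rise depends on scaling: median centring of the arrays shifted the median difference over all genes from 0.05 to -0.15 against Mac1+ and from 0.05 to -0.12 against Mac1lo cells, and the differences of Lmna were then 0.30 (adjusted p = 0.12) and 0.25 (adjusted p = 0.18). With quantile normalization they were larger, at 0.76 (adjusted p = 0.00114) and 0.70 (adjusted p = 0.0017). The call against Mac1lo cells was also lost without Mac1lo array 1, 2 or 3 (adjusted p = 0.0669, 0.0767 and 0.0805), and both calls were lost in a fit of only the populations compared (adjusted p = 0.0522 and 0.0635). The other 4 Lmna probe sets were dim, at a mean of 6.29 to 33.2.

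Lmnb1, a B-type lamin gene whose transcript falls in senescent cells, was read by a pair of bright probe sets that disagreed. The brighter, 1423521_at, gave 1698, 2601 and 2176 in Mac1lo cells, 2197, 2007 and 1736 in Mac1+ cells and 2153, 1944 and 2233 in neutrophils. All 3 groups overlapped, and neutrophils differed from Mac1+ cells by 0.10 ± 0.18 (95% interval -0.32 to 0.51, adjusted p = 0.699). The other, 1423520_at, gave 877.5, 822.2 and 849.9, then 921.1, 1132 and 1183, then 2056, 1374 and 1823, so that no group overlapped the next. In a fit of all 45037 probe sets that are not controls, which called 40.8% of them for neutrophils against Mac1+ and 45.1% against Mac1lo, this probe set was higher in neutrophils by 0.68 ± 0.19 (adjusted p = 0.0186) and 1.01 ± 0.19 (adjusted p = 0.00195). Neither probe set was called lower in neutrophils.

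Lmnb2, the other B-type lamin gene, behaved otherwise. Its intensity was 2818, 2647 and 2729 in Mac1lo cells and 3466, 3513 and 3960 in Mac1+ cells, but 292.8, 236.9 and 263.7 in neutrophils. No neutrophil array came near the c-kit+ range. Lmnb2 was 13.1-fold lower in neutrophils than in Mac1+ cells (8.13 ± 0.14 against 11.84 ± 0.11, difference -3.71 ± 0.14, adjusted p = 9.89e-08) and 9.82-fold lower than in Mac1lo cells (difference -3.30 ± 0.14, adjusted p = 1.05e-07). Its dimmer probe set, 1451849_a_at, fell as well (difference from Mac1+ cells -2.48 ± 0.22, adjusted p = 1.64e-05). The higher level in Mac1+ than in Mac1lo cells, without overlap, did not pass (difference 0.41 ± 0.14, adjusted p = 0.1), and had adjusted p = 0.0219 when neutrophil array 1 was left out and its spread no longer entered the error.

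The ratio of transcripts within an array shows whether they changed unequally. The log2 of Lmnb2 over Lmnb1 moved by -3.80 from Mac1+ cells to neutrophils (SD within the populations 0.27 and 0.10, n = 3 each; exact two-sided permutation p = 0.1). The log2 of Lmna over Lmnb1 moved by 0.40 (exact p = 0.1) with the brighter Lmnb1 probe set and by -0.19 (exact p = 0.3) with the other, so its direction rests on the probe set. Lmna over Lbr moved by -0.44 from Mac1lo to Mac1+ cells and by 0.59 from there to neutrophils (exact p = 0.1 for each; SD within Mac1lo, Mac1+ and neutrophil arrays 0.06, 0.13 and 0.08, n = 3 each). With 3 arrays against 3 the smallest p is 0.1, which is 0.15 after adjustment over the 12 ratio tests, so none can pass. The ratios of Lmnb2 to Lmnb1 and of Sun2 to Sun1 were chosen after their values were seen, as were the ratios with the other probe set, which are not among the 12.

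Lbr encodes the lamin B receptor, which binds B-type lamins and heterochromatin and carries a sterol reductase domain. It was bright on every array, at 8932, 8226 and 8839 in Mac1lo cells, 11588, 10568 and 11122 in Mac1+ cells, and 11622, 10185 and 9501 in neutrophils. Mac1lo cells were lowest without overlap, and Mac1+ cells and neutrophils overlapped. Neutrophils differed from Mac1+ cells by -0.09 ± 0.14 (95% interval -0.40 to 0.22, adjusted p = 0.608) and from Mac1lo cells by 0.26 ± 0.14 (-0.04 to 0.57, adjusted p = 0.137). Mac1+ cells differed from Mac1lo cells by 0.36 ± 0.14 (adjusted p = 0.154, and 0.0315 without neutrophil array 1). With quantile normalization neutrophils were 0.58 above Mac1lo cells (adjusted p = 0.00245) and the difference from Mac1+ cells turned to 0.30 (adjusted p = 0.0621).

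**Figure D2:**
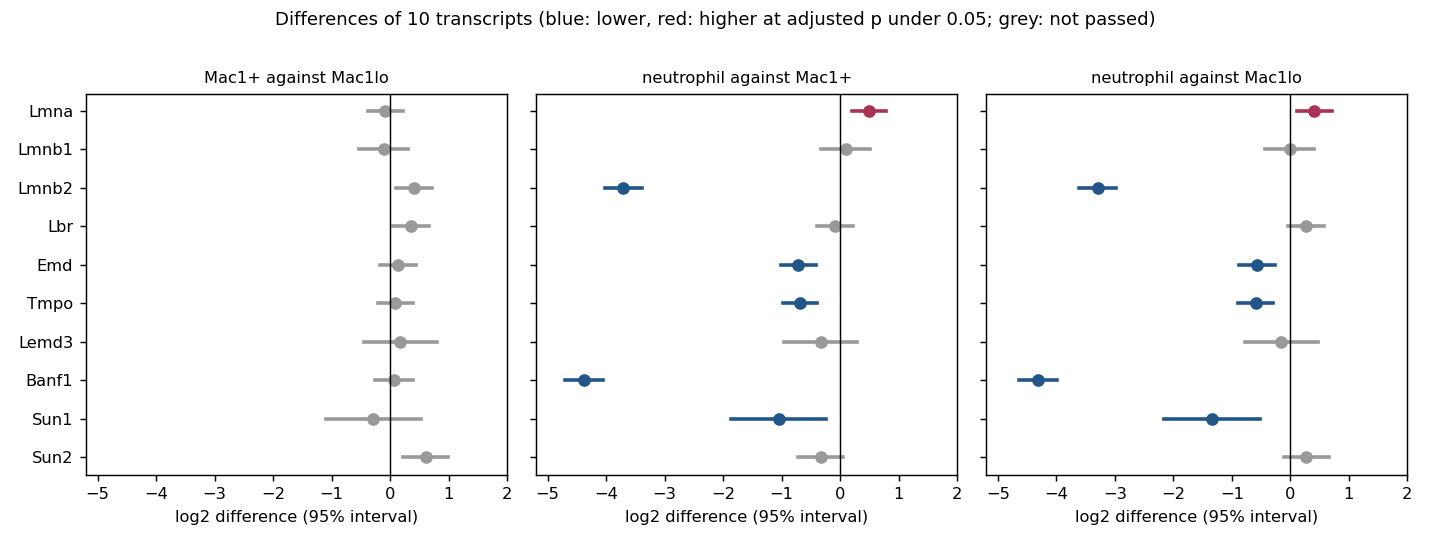
Differences of the 10 genes in log2 units with 95% intervals, a panel per comparison; colour marks genes called at adjusted p under 0.05. In Mac1+ against Mac1lo no gene is coloured as called, and Banf1 (-4.38) and Lmnb2 (-3.71) lie farthest from 0 in neutrophils against Mac1+ cells.

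Banf1 encodes the barrier-to-autointegration factor, a small protein that binds DNA and LEM domains and gathers chromatin as the envelope reforms after mitosis. Its probe set 1421082_s_at gave 5238, 4356 and 4569 in Mac1lo cells, 4518, 5049 and 5229 in Mac1+ cells and 223.4, 203.4 and 235.9 in neutrophils. The c-kit+ groups overlapped and the neutrophil arrays lay far below them. Banf1 was 20.9-fold lower in neutrophils than in Mac1+ cells (7.89 ± 0.10 against 12.27 ± 0.11, difference -4.38 ± 0.14, adjusted p = 5.25e-08) and 19.96-fold lower than in Mac1lo cells (difference -4.32 ± 0.14, adjusted p = 3.64e-08), the largest fall among the 10. The suffix s marks probes that can bind several transcripts. Another probe set without it, 1421081_a_at, was more variable, with 3707, 2514 and 1262 in Mac1+ cells and 811.4, 163.3 and 126.2 in neutrophils, and was lower too (difference -3.05 ± 0.64, adjusted p = 0.00411 in the fit of every probe set).

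The sequences before the start of Banf1 and Lmnb2, which fell most, and of Lbr, which did not pass the test, are shown to set these promoters side by side. Each run is the 250 bases before the outermost start of the gene in RefSeq (GRCm38.p6), read 5′ to 3′ on the gene's strand, which is the minus strand for all 3: chr19:5366877-5367126 for Banf1, chr10:80918246-80918495 for Lmnb2 and chr1:181842402-181842651 for Lbr. Capitals mark matches on either strand to CCAAT (the CCAAT box), GGGCGG (the GC box), TTTGAA (the cell cycle homology element), GAGGAA (a PU.1 core) and TTTCCCGC or TTTGGCGC (E2F sites).
Banf1: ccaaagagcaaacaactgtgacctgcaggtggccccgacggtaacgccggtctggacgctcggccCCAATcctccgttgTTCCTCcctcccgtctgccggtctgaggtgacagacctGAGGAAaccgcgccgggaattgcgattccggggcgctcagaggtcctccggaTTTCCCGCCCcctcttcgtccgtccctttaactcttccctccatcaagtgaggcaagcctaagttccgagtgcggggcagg
Lmnb2: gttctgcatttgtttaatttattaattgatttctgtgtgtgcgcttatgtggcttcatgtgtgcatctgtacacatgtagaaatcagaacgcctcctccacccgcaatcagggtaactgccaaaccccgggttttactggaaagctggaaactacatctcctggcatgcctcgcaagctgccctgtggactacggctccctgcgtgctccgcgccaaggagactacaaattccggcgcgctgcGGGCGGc
Lbr: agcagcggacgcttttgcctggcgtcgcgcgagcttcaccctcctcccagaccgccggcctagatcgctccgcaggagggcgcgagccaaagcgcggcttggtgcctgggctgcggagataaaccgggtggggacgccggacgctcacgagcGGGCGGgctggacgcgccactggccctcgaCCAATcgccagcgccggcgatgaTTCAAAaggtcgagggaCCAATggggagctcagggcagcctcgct
In Banf1 the E2F match begins 81 bases before the start and overlaps a GC box match that begins 77 bases before it; a CCAAT match begins at 185 and GAGGAA matches at 171 and 133. Lmnb2 held a GC box match and none of the other letters in this window. Lbr held a pair of CCAAT matches, 68 and 28 bases before the start, with a TTTGAA match between them at 45 and a GC box match at 98. Promoters were found for 9 of the 10 genes (not Lmnb1). Over their outermost starts, GGGCGG stood in 9 of 9 against 32.7% of the 32851 mouse promoters in the same table, CCAAT in 7 against 33.8%, TTTGAA in 2 (Lbr and Sun2) against 5252 of the 32851, GAGGAA in 2 (Banf1 and Tmpo) against 23.3%, and the E2F letters in 1 (Banf1) against 1.30%. The 32851 promoters include further starts of the same gene, whereas only the outermost start of each member was counted, so the shares are of unlike sets. The inner starts of Lmna, Lmnb2, Tmpo and Sun1 held no GGGCGG match, and that of Tmpo held the E2F letters. These are counts of letters and were not tested.

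Among the LEM-domain genes, Emd encodes emerin, an inner membrane protein that binds lamins and Banf1's product. It had intensities of 1701, 1846 and 2019 in Mac1lo cells, 2019, 2183 and 1930 in Mac1+ cells and 1297, 1216 and 1208 in neutrophils, the last below every c-kit+ array. Emd was 1.64-fold lower in neutrophils than in Mac1+ cells (difference -0.71 ± 0.13, adjusted p = 0.00179) and 1.49-fold lower than in Mac1lo cells (difference -0.57 ± 0.13, adjusted p = 0.00552).

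Tmpo encodes the lamina-associated polypeptide LAP2 in several spliced forms, some anchored in the membrane and one in the nuclear interior. Its brightest probe set, 1452036_a_at, gave 6518, 5936 and 6236 in Mac1lo cells, 6589, 6495 and 6850 in Mac1+ cells and 4329, 4322 and 3735 in neutrophils. Neutrophils again lay below all others, with a difference of -0.69 ± 0.13 from Mac1+ cells (adjusted p = 0.00194) and -0.59 ± 0.13 from Mac1lo cells (adjusted p = 0.00398). The other bright probe sets fell further: 1428976_at by -1.04 ± 0.14 (adjusted p = 0.000348) and 1426349_s_at by -1.48 ± 0.29 (adjusted p = 0.00285), both from Mac1+ cells to neutrophils in the fit of every probe set. For the last, neutrophil array 1 read 492.1 and arrays 2 and 3 read 1024 and 1171. Which spliced form each probe set reads was not analysed here.

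Lemd3 encodes MAN1, an inner membrane protein that restrains SMAD signals. It read 680.0, 660.1 and 695.9 in Mac1lo cells and 814.1, 769.4 and 729.1 in Mac1+ cells, higher without overlap but not past the test (difference 0.18 ± 0.27, adjusted p = 0.848), whereas neutrophil array 1 read 361.3 and arrays 2 and 3 read 755.9 and 820.2. The neutrophil groups overlapped both others and did not pass (difference -0.33 ± 0.27 from Mac1+ cells, adjusted p = 0.352). Without neutrophil array 1 the differences turned from -0.33 to 0.03 and, against Mac1lo cells, from -0.15 to 0.21 (adjusted p = 0.829 and 0.131). A dimmer probe set, 1439587_at, read 394.9 on neutrophil array 1 and 151.4 and 145.3 on the others, the opposite order.

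Sun1 and Sun2 encode the inner membrane parts of the bridges between lamina and cytoskeleton, known as LINC complexes. Sun1 gave 1153, 1225 and 1295 in Mac1lo cells, 1008, 975.2 and 1019 in Mac1+ cells and 229.2, 696.4 and 658.5 in neutrophils, so that the groups stepped down without overlap. It was 2.07-fold lower in neutrophils than in Mac1+ cells (difference -1.05 ± 0.36, adjusted p = 0.0376) and 2.53-fold lower than in Mac1lo cells (difference -1.34 ± 0.36, adjusted p = 0.0116). Neutrophil array 1 set much of that size: without it the differences were -0.55 (adjusted p = 0.00234) and -0.84 (adjusted p = 0.000171). The first call was lost on leaving out each of the 6 c-kit+ arrays in turn (adjusted p = 0.056 to 0.0913), with quantile normalization (0.139), and with an offset of 1 in place of 16 (0.0541). It was also lost with the mean of both probe sets (adjusted p = 0.0611) and in a pairwise fit (adjusted p = 0.0867). The dimmer Sun1 probe set, 1426667_a_at, did not pass (difference -0.46 ± 0.26 from Mac1+ cells, adjusted p = 0.197).

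Sun2 was bright, at 6056, 6777 and 6405 in Mac1lo cells, 10134, 9163 and 10069 in Mac1+ cells and 9738, 7289 and 6571 in neutrophils. Mac1+ cells were above Mac1lo cells without overlap, by 0.61 ± 0.17, which just missed the threshold (adjusted p = 0.0516, and 0.00366 without neutrophil array 1). Neutrophils overlapped both (differences -0.33 ± 0.17 and 0.28 ± 0.17, adjusted p = 0.139 and 0.208). Without neutrophil array 1, which was the highest of its group, neutrophils were below Mac1+ cells (difference -0.50, adjusted p = 0.0063). Median centring gave a call as well (difference -0.53, adjusted p = 0.00778, and 0.64 with adjusted p = 0.0122 for Mac1+ against Mac1lo), and the rise to Mac1+ cells passed in 9 of 19 alternatives. The mean of both probe sets turned the direction, with neutrophils above Mac1+ cells by 0.49 (adjusted p = 0.03) and above Mac1lo cells by 1.52 (adjusted p = 2.6e-05). A second Sun2 probe set, 1439238_at, rose at each step, from 188.5, 187.0 and 152.4 to 438.5, 537.4 and 567.0 and then to 1517, 1338 and 1059. In the fit of every probe set it was 1.46 ± 0.19 higher in Mac1+ than in Mac1lo cells (adjusted p = 0.00176, where 6.79% of probe sets were called) and a further 1.31 ± 0.19 higher in neutrophils (adjusted p = 0.000479). It was the only 1 of the 18 bright probe sets called between the c-kit+ populations. The log2 of Sun2 over Sun1, from the brighter probe sets, moved by 0.89 from Mac1lo to Mac1+ cells (exact p = 0.1) and by 0.72 from there to neutrophils (exact p = 0.2), or 0.06 without neutrophil array 1. From the second probe set of each gene this ratio moved by 1.63 and then by 1.77 (exact permutation p = 0.1 for each), so its size rests on the probe set.

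**Figure D3:**
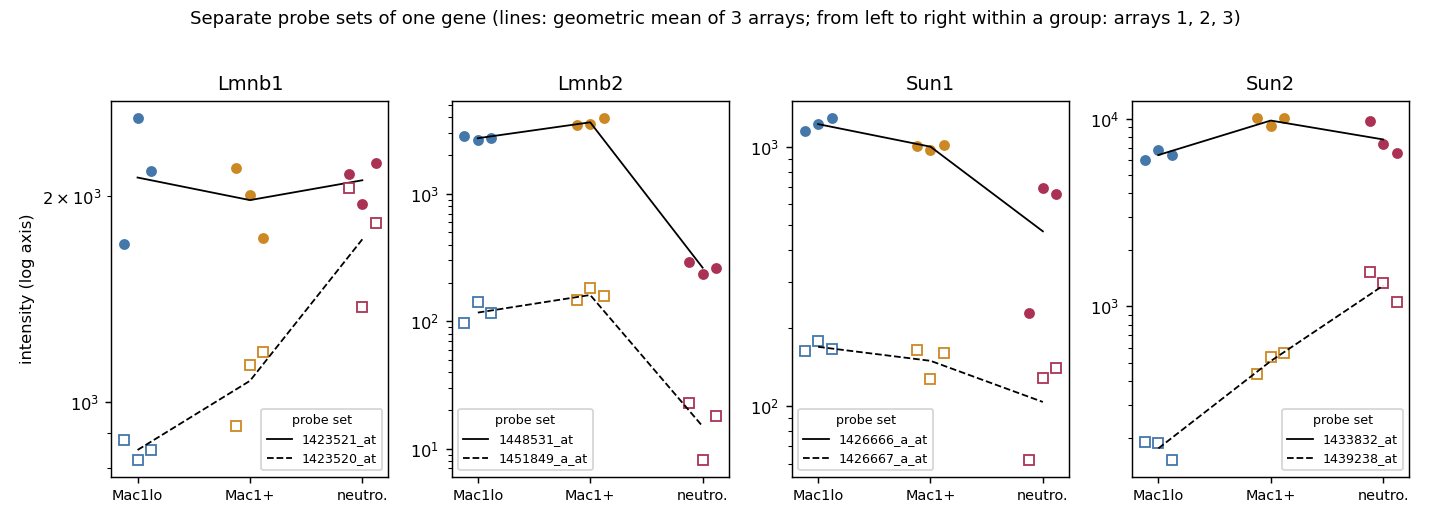
Intensities on a log axis for both probe sets of Lmnb1, Lmnb2, Sun1 and Sun2 (filled and open points, arrays; lines, geometric means of 3 arrays). Both Lmnb2 probe sets fall in neutrophils, while 1423520_at of Lmnb1 and 1439238_at of Sun2 rise into neutrophils and their brighter partners do not.

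The order of the populations therefore differed among the 10 genes. Neutrophils were lowest for Lmnb2, Banf1, Emd, Tmpo and Sun1, beyond their spread, though the call of Sun1 against Mac1+ cells depended on the setting. They were highest for Lmna, with the limit on scaling given above. For Lbr and Sun2 the order by the brightest probe set was Mac1lo, neutrophils and Mac1+ cells, with no neighbouring means that passed the test. The second Sun2 probe set rose at each step, as given above. For Lmnb1 and Lemd3 no difference between populations passed the test by the brightest probe set. The other bright Lmnb1 probe set, 1423520_at, was called higher in neutrophils than in Mac1+ and Mac1lo cells (differences 0.68 and 1.01, adjusted p = 0.0186 and 0.00195). A dim Lemd3 probe set, 1459700_at, was called higher in neutrophils than in Mac1+ cells (difference 0.63, adjusted p = 0.0411). By the root mean square difference of log2 values centred on each gene's own mean over the 9 arrays, the genes most like Lbr among 10915 were Rap1a (0.0516), Gnai2 (0.0576) and Arhgap15 (0.0607). Those most like Lmna were Dstyk (0.0771), Angel2 (0.0826) and Rtn4 (0.0835), and those most like Lmnb1 were Tmub1 (0.103), Otub1 (0.109) and Stat5a (0.116).

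Beyond the 10, the largest called differences between the c-kit+ populations among 47 other listed genes were those of Syne1 and Syne2. The other nesprin genes, Syne3 and Syne4, did not pass (differences -0.27 and -0.02). Syne1, which encodes nesprin-1, an outer membrane protein that SUN proteins hold and that binds actin, read 320.2, 355.9 and 304.5 in Mac1lo cells, 3850, 3907 and 4861 in Mac1+ cells and 5521, 6021 and 5852 in neutrophils. It was 12.3-fold higher in Mac1+ than in Mac1lo cells (difference 3.62 ± 0.15, adjusted p = 2.34e-06), a call made under all 19 alternatives. The further step to neutrophils (0.47 ± 0.15, adjusted p = 0.0265) was lost without Mac1+ array 1 or 2 or neutrophil array 2 (adjusted p = 0.0897, 0.0953 and 0.0649), with arrays centred on their medians (0.26), with a replicate block (0.0557) and in a pairwise fit (0.074). Syne2, for nesprin-2, rose by 2.42 ± 0.42 from Mac1lo to Mac1+ cells (adjusted p = 0.00544), from intensities of 5.0, 12.3 and 13.6 to 94.6, 115.0 and 170.8; with probe sets of suffix x or s left out, another represented it and the difference was 0.73 (adjusted p = 0.297). Of 7 other LINC genes, 2 rose and 5 did not pass in this comparison, and in neutrophils against Mac1+ cells 3 rose (Syne1, Syne2 and Sun5), 1 fell (Syne3) and 3 did not pass. These calls depended on the setting: Syne2, whose groups overlapped, passed in 9 of 19 alternatives, Sun5 in 12 of 18 and Syne3 in 13 of 18, and the last pair were dim, at most 77.0 and 53.8 in these populations. The list's medians were -0.02 and 0.47.

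Enzymes that mature lamins went different ways. Prelamin A and B-type lamins are farnesylated by Fnta and Fntb, trimmed by Rce1 and methylated by Icmt, and Zmpste24 then cuts prelamin A. Zmpste24 rose at both steps, from 2722, 2444 and 2500 in Mac1lo cells to 4609, 4319 and 4216 in Mac1+ cells (difference 0.77 ± 0.15, adjusted p = 0.00815) and to 8003, 6483 and 6245 in neutrophils (difference 0.65 ± 0.15, adjusted p = 0.00507). Rce1 and Fntb fell from Mac1+ cells to neutrophils (differences -1.61 ± 0.14 and -1.52 ± 0.14, adjusted p = 1.36e-05 and 1.81e-05). Casp6, a caspase that cleaves lamin A in apoptosis, was 1.02 ± 0.13 higher in neutrophils than in Mac1+ cells (adjusted p = 0.000134). Of these 6 genes, 1 rose (Zmpste24) and 1 fell (Casp6) in Mac1+ against Mac1lo, and 2 rose (Zmpste24 and Casp6) and 3 fell (Rce1, Fntb and Icmt) in neutrophils against Mac1+ (medians 0.02 and -0.32).

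Another 12 genes were listed with the inner membrane, though not all of their products sit in it. Of these 12, 4 were lower in neutrophils than in Mac1+ cells (Ankle1, Nrm, Tor1aip2 and Tmem201) and 8 did not pass (median -0.31). Tmem201 passed in 15 of 19 alternatives, and its call was lost with quantile normalization (adjusted p = 0.067). Ankle1, a LEM-domain endonuclease, read 788.6, 863.7 and 964.5 in Mac1+ cells and 36.2, 43.0 and 43.7 in neutrophils (difference -3.96 ± 0.17, adjusted p = 1.65e-07), and Nrm, which encodes nurim, fell too (difference -2.24 ± 0.28, adjusted p = 0.000132). Nrm read 179.6 on neutrophil array 1 and 426.6 and 382.3 on arrays 2 and 3, and its difference ranged from -2.46 to -1.11 over 19 alternatives, all called. In Mac1+ against Mac1lo 1 fell (Ankle2) and 11 did not pass. All 7 chromatin partners of the lamina were called in neutrophils against Mac1+ cells, as were 48.1% of all genes, 6 lower and 1 higher (median -0.73). Cbx5, for heterochromatin protein 1 alpha, which the lamin B receptor binds, read 1835, 1872 and 2047 in Mac1+ cells and 13.4, 47.9 and 51.3 in neutrophils (difference -5.27 ± 0.29, adjusted p = 6.99e-07, and -2.47 with its probe sets averaged). Prr14, which encodes a protein that ties heterochromatin protein 1 to the lamina, was the exception: it read 1094, 1014 and 1044 in Mac1lo cells, 1714, 1727 and 2004 in Mac1+ cells, and 5317, 4488 and 3838 in neutrophils (difference at the last step 1.31 ± 0.16, adjusted p = 0.000109). The rise of Prr14 at the step between c-kit+ populations (0.78 ± 0.16, adjusted p = 0.0123) was lost without Mac1lo array 2 or 3 or Mac1+ array 3 (adjusted p = 0.0607, 0.0578 and 0.056).

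Dhcr7 and Tm7sf2, sterol reductases related to the enzymatic part of the lamin B receptor, were both lower in neutrophils than in Mac1+ cells (differences -3.36 ± 0.19 and -2.31 ± 0.61, adjusted p = 7.4e-07 and 0.012), and neither passed between the c-kit+ populations. Tm7sf2 varied widely, at 1912.7, 1759.6 and 426.3 in Mac1+ cells and 420.0, 118.5 and 194.1 in neutrophils. Its call held in all 19 alternatives, with adjusted p up to 0.0493. Of 13 measured genes of envelope breakdown and reassembly, 6 fell and 2 rose (Chmp2a and Lpin1) in neutrophils against Mac1+ cells (median -0.24). Cdk1, the kinase that takes the lamina apart in mitosis, fell (difference -3.86 ± 0.21, adjusted p = 6.82e-07), and Chmp2a, a subunit of the membrane-sealing ESCRT-III machinery, rose by 0.86 ± 0.17 from Mac1lo to Mac1+ cells (adjusted p = 0.0113), a call lost without Mac1lo array 2 or 3 or Mac1+ array 2 or 3 (adjusted p = 0.0523 to 0.0605). Over all 47 of these other listed genes, 5 rose (Syne1, Syne2, Zmpste24, Chmp2a and Prr14) and 4 fell (Ankle2, Casp6, Lpin1 and Cbx3) in Mac1+ against Mac1lo, and 8 rose and 22 fell in neutrophils against Mac1+. The 47 include genes whose products are not part of the envelope, and the cell cycle genes Cdk1 and Ccnb2 are among the 22 that fell. Of all genes, 6.31% rose and 5.51% fell in the first comparison and 19.7% rose and 28.4% fell in the second, and these shares are the background for each list above. The falls between the c-kit+ populations passed in 14, 10, 12 and 16 of 19 alternatives in that order.

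Proliferation genes were lower in neutrophils, as were Lmnb2, Banf1, Tmpo, Emd and Sun1. All 14 proliferation genes were lower in neutrophils than in Mac1+ cells (median -4.25 against 0.05 for all genes). Of all genes, 28.4% were lower there. All 14 were also lower than in Mac1lo cells (median -4.09). Mcm3, a subunit of the replicative helicase, read 5084 to 6624 in Mac1+ cells and 63.2 to 92.2 in neutrophils. Between the c-kit+ populations 1 of the 14 rose (Ccna2, 0.68, adjusted p = 0.0246) and 13 did not pass. The Ccna2 call was lost on leaving out each of the 6 c-kit+ arrays (adjusted p = 0.0668 to 0.106), with a replicate block (0.0724) and with median centring (0.073). Their part in the results on the lamina was not tested.

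**Figure D4:**
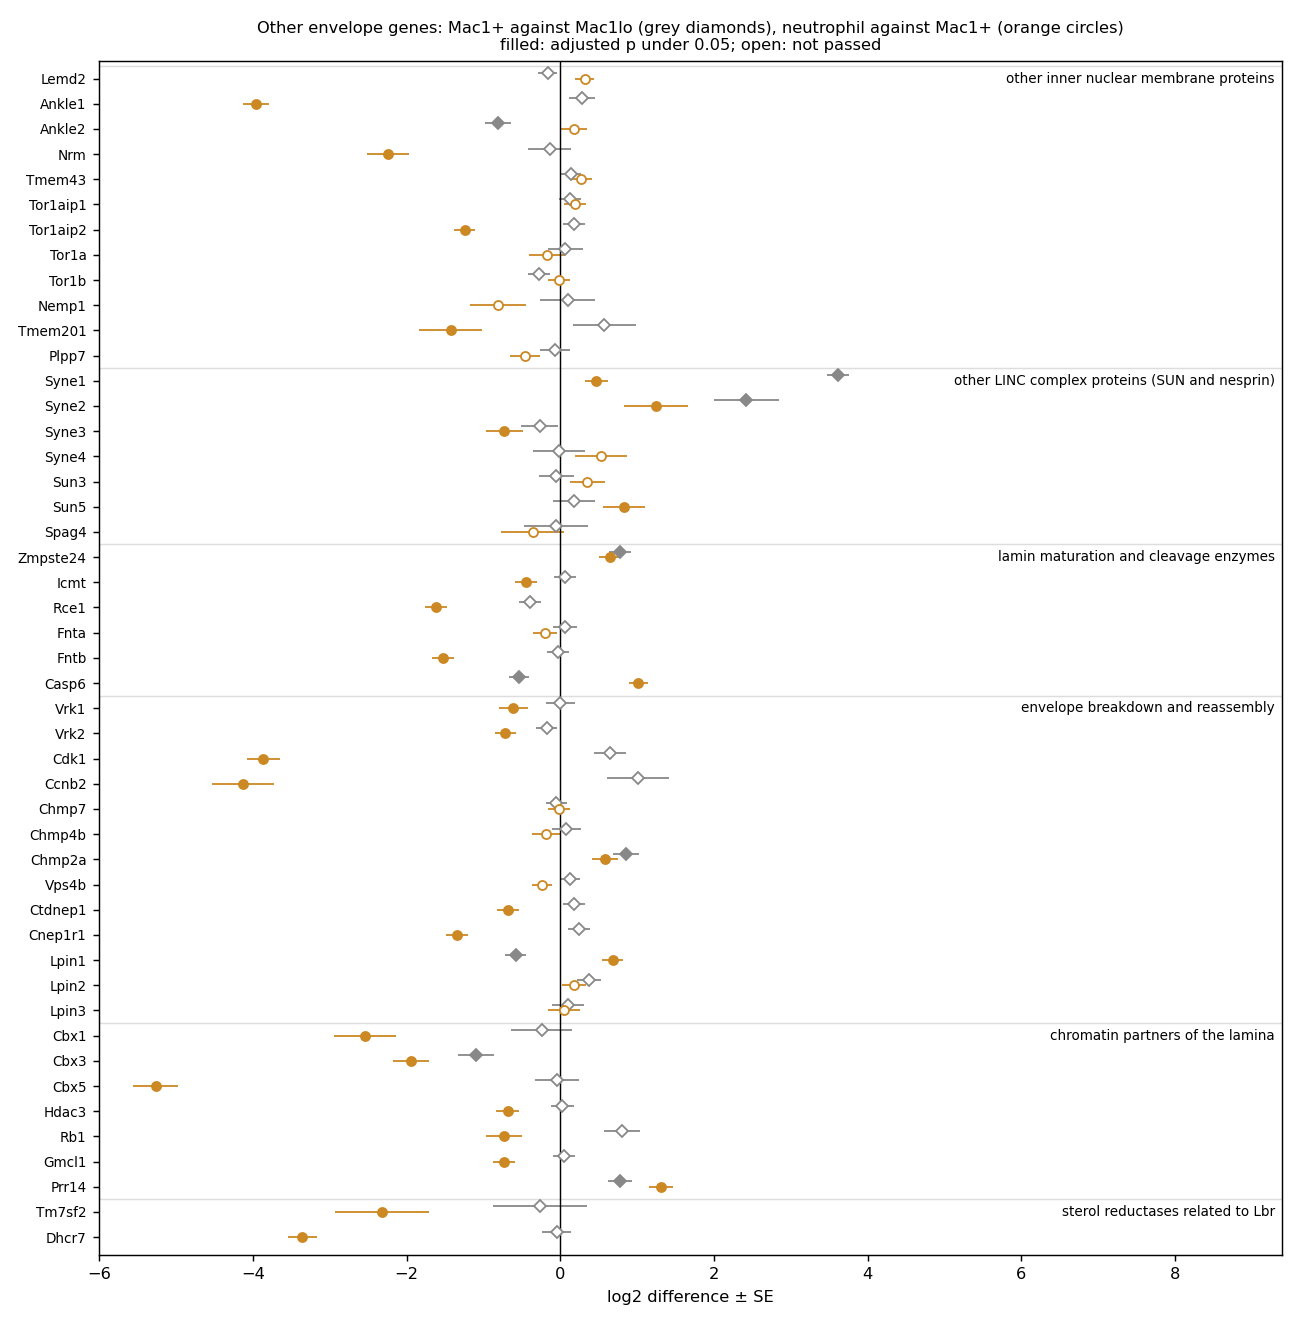
Differences (± SE, log2) of 47 other genes of the envelope or related to it, grouped by role, for Mac1+ against Mac1lo (diamonds) and neutrophil against Mac1+ (circles). Filled symbols passed at adjusted p under 0.05. Syne1 (3.62) and Syne2 (2.42) stand out between the c-kit+ populations, and Cbx5 (-5.27), Ccnb2 (-4.13) and Ankle1 (-3.96) are lowest in neutrophils. With probe sets of suffix x or s left out, Syne2 is at 0.73 and does not pass. Cbx5 is at -2.47 with its probe sets averaged.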

How the data were processed

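RNA was amplified, labelled with biotin and hybridised to Affymetrix arrays, per the labels' protocols. The authors deposited linear intensity values in 1 table of 45101 probe sets by 9 arrays; the summary, background and scaling steps are not given in the sources used here. Values were used as deposited, as log2(intensity + 16). Probe sets were named by the platform annotation; 34945 name 1 gene. For each of 18193 genes the probe set with the highest mean was kept. All 9 arrays entered 1 linear model of the 3 populations in limma 3.58.1 (R 4.3.3) with moderated variances and Benjamini-Hochberg adjustment; the procedure was tested on simulated data. Their number limits the precision. Named are all 10 members and, from each companion list and comparison, genes drawn from at most 4 called ones ranked by size of difference or, where none was called, 2 of lowest p; Mcm3 stands for proliferation. For Lmna, Lmnb1 and Lbr, the 3 genes nearest in pattern above the 40th percentile of mean level are named. Members and lists were chosen with earlier results of these data known. Alternatives were a replicate block, quantile normalization, median centring, offsets of 1 and 64, leaving out dim genes (under the 40th percentile), other treatments of probe sets, a trended robust prior, pairwise fits, and leaving out each array. Background correction could not be varied on summarised values. Listed genes without a probe set of their own (such as Ccnb1) were not analysed here.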

Additional observations from a re-analysis of the deposited data

How the results depend on the processing

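The falls of Lmnb2, Banf1, Emd and Tmpo in neutrophils, and that of Sun1 against Mac1lo cells, were called under all 19 alternatives that test a gene. Lmna passed in 17 of 19 against Mac1+ cells and in 12 of 19 against Mac1lo cells. The number of members higher in Mac1+ than in Mac1lo cells, 0 as reported, was 1 with quantile normalization, with median centring and with probe sets averaged per gene, 2 without dim genes and with a trended robust prior, 3 with an offset of 64 and in a pairwise fit, and 0 to 3 when an array was left out. The number higher in neutrophils than in Mac1+ cells, 1 as reported, was 0 with median centring, in a pairwise fit and when every probe set of a gene had to pass, and 3 with probe sets averaged per gene. Against Mac1lo cells it was 0 with a replicate block, median centring, only these populations and every probe set, 3 with quantile normalization and with the mean of probe sets, and 0 to 1 when an array was left out. The number lower, 5 in both, was 3 in both when every probe set had to pass, dim ones included, and 4 to 6 and 5 when an array was left out. Requiring only probe sets over an intensity of 100, an alternative chosen after seeing the data, kept each count within 1.5 times. The cause was not tested.

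The sign of some differences that had not passed turned. With quantile normalization neutrophils minus Mac1+ was 0.30 for Lbr and 0.011 for Sun2, and neutrophils minus Mac1lo 0.10 for Lmnb1 and 0.14 for Lemd3. With median centring Lmnb1 turned to -0.10 in neutrophils minus Mac1+. The mean of probe sets, which mixes dim and bright ones, gave 0.11 for Lmnb1, -0.21 for Banf1, -0.21 for Tmpo and -0.10 for Lemd3 in Mac1+ minus Mac1lo, 0.49 for Sun2 (adjusted p = 0.03) and 0.36 for Lemd3 in neutrophils minus Mac1+, and 0.50 for Lmnb1 (adjusted p = 0.0156) and 0.26 for Lemd3 in neutrophils minus Mac1lo; the log2 ratio of Lmna to Lmnb1 then changed by -0.18 from Mac1lo to Mac1+ cells and by -0.14 from Mac1lo cells to neutrophils. With the second bright probe set of each gene that has more than 1, chosen after seeing the data, that ratio changed by -0.41, -0.19 and -0.60 in Mac1+ minus Mac1lo, neutrophils minus Mac1+ and neutrophils minus Mac1lo. Without probe sets of suffix x or s Banf1 was -0.34 in Mac1+ minus Mac1lo. Leaving out an array gave ranges across 0 for Lmnb1 (-0.27 to 0.035 for Mac1+ minus Mac1lo, -0.17 to 0.13 for neutrophils minus Mac1lo), Lemd3 (-0.54 to 0.031 and -0.36 to 0.21 for neutrophils minus Mac1+ and Mac1lo), Dhcr7 (-0.18 to 0.13) and Tm7sf2 (-0.64 to 0.42) in Mac1+ minus Mac1lo, and the Lmna to Lmnb1 ratio there (-0.12 to 0.19).

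Replicate numbers are shared by the titles, and the labels do not say whether arrays of the same number were paired. No array of the 9 correlated best with its own number in both other populations (correlation of deviations -0.307 to 0.132). With so few arrays per population, such matches are rare by chance and easily missed, so this check cannot decide whether the arrays were paired. The replicate block left 5 members lower in each neutrophil comparison. Signal over background limits the 9 probe sets at or under an intensity of 100.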
